A study of Homo sapiens with 24 samples.

Results

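The 3′ portion of the human 12S mt-rRNA, the RNA of the small subunit of the mitochondrial ribosome, was followed base by base in cells with and without the 2′-O-methyltransferases MRM1, MRM2 and MRM3. It was taken by position alone, as the nucleotides of MT-RNR1 at mtDNA positions 1128 to 1601, on the + strand of chrM in GRCh38. These are 474 of the 15416 positions measured over the 37 mitochondrial transcripts. The portion is exonic rRNA throughout, ends at the last nucleotide of the gene, and is followed at once by the tRNA gene MT-TV, which starts at 1602. Its bases are named here by letter and mtDNA number.

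The samples were mitochondria-enriched RNA of HEK 293T Flp-In T-REx (labelled HEK293T), a human embryonic kidney cell line built to take up inducible transgenes, from 4 lines: the parental line, and lines of the same background in which MRM1, MRM2 or MRM3 had been knocked out. Each gene was represented by 1 line, for MRM2 a clone made with zinc-finger nucleases. The medium given for knock-out cells, in the account of how the MRM2 line was made, held uridine and more fetal bovine serum than the standard medium of the study. No separate medium is stated for the MRM1 and MRM3 lines, which were provided by others. A difference caused by the lost gene therefore cannot be told apart from a difference between lines or, where the medium differed, between media. There were 3 replicates per line, each from its own culture plate, and every replicate gave 2 libraries from the same fragmented RNA, with cDNA synthesised at 500 µM or at 2 µM dNTP, which makes 24 libraries. In 18 of the 24 samples the genotype label names another line than the title, and the titles were used.

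In bacteria and in mitochondria alike, this end of the small subunit rRNA carries the decoding centre, where the codon and the tRNA anticodon are inspected, and close to its 3′ end a short stem-loop called helix 45 with a pair of adjacent dimethylated adenines. In the human 12S mt-rRNA the base methylations known here are an N4-methylcytidine at C1486, set by METTL15, a 5-methylcytidine at C1488, set by NSUN4, and the N6,N6-dimethyladenines A1583 and A1584, set by TFB1M. MRM1, MRM2 and MRM3 methylate the ribose of bases in the 16S mt-rRNA of the large subunit, and no target of theirs is known in the 12S mt-rRNA. Dimethylation at N6 removes the Watson-Crick face of adenine and hinders reverse transcriptase, whereas a 5-methyl group leaves base pairing as it was.

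The first stretch below is the decoding-site strand of 12S at chrM:1478-1502, shown because it holds C1486, C1488 and the base with the largest change in fragment ends, C1495, all 3 in capitals. The second is helix 45 with the 3′ end, chrM:1572-1601, with the dimethylated A1583 and A1584 in capitals, and the third is the site of strongest apparent protection, chrM:1431-1446, with A1438 and A1439 in capitals. All are reference bases of GRCh38 written 5′ to 3′ as RNA, and every base listed for the transcript matched that reference.
decoding-site strand: acacaccgCcCgucaccCuccucaa
helix 45 and 3′ end: aaguguacuggAAagugcacuuggacgaac
A1438 and A1439: guaaacuAAgaguaga

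Read totals over all mitochondrial transcripts ranged from 162673 to 807322 in the 500 µM libraries and from 483960 to 4048537 in the 2 µM libraries. The 3′ portion took 11.99% to 21.5% of the reads at 500 µM and 4.65% to 12.3% at 2 µM, with a median coverage per base of 7517 to 43939 fragments at 500 µM and 2246 to 44436 at 2 µM. The 3 MRM2 knock-out libraries were the shallowest at 500 µM in this portion. The cleavage protection score, which runs from 0 to 1, was used to check the line labels at the 16S bases that the 3 enzymes methylate. It was 0 in all 3 MRM1 knock-out libraries at G2815 (0.418 to 0.632 in the parental line), and 0.00548 to 0.155 in the MRM3 knock-out at G3040 (0.780 to 0.887 in the parental line). At U3039 it was 0 in all 3 libraries of the MRM2 knock-out and also in all 3 of the MRM3 knock-out (0.256 to 0.372 in the parental line), so that only G3040, at 0.902 or more without MRM2, separates these knock-outs. The titles of the 500 µM libraries fit the lines at these bases. The deposited score exists for these libraries only, so the titles of the 2 µM libraries were not checked in this way.

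Reverse transcription (RT) stopped at the dimethylated adenines more than at any other base of the 3′ portion when dNTPs were plentiful. A stop at a base is counted where cDNA synthesis ended just before copying it, and its stop percentage is the share of the reads reaching the neighbouring 3′ base that ended there, after adding 1 to both counts. At 500 µM the stop percentage at A1583 was 6.71%, 5.89% and 4.25% in the parental replicates, 6.97%, 6.70% and 6.63% in the MRM1 knock-out, 2.41%, 3.05% and 3.83% in the MRM2 knock-out, and 3.26%, 4.19% and 4.98% in the MRM3 knock-out. The MRM2 knock-out libraries all lay below the parental ones, while those of MRM1 and MRM3 overlapped with them. At A1584 it was 5.57%, 5.01% and 3.96% in the parental line, 5.64%, 4.59% and 5.09% without MRM1, 1.71%, 2.87% and 2.88% without MRM2, and 2.99%, 3.29% and 3.73% without MRM3, so that here the MRM2 and MRM3 knock-outs both lay below the parental line. For comparison, the median stop percentage over the 473 positions with a value was 0.464% in the parental line at 500 µM, and the base with the next highest parental mean after these adenines, A1137, reached 3.04% ± 0.305 (SD, n = 3).

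At 2 µM few stops were counted at A1583 and many at A1585, the base 3′ of the pair, which is itself an adenine, the base with the most stops at this dNTP level. A1583 itself gave 0.176%, 0.192% and 0.175% in the parental line, below every library at 500 µM. A1585 gave 10.3%, 8.77% and 9.58% at 2 µM and 0.695%, 0.496% and 0.174% at 500 µM. A1584 was high at both levels, with 8.83%, 9.73% and 14.1% in the parental line at 2 µM. Of all stops counted at these 3 bases in the parental line at 500 µM, 50.4% ± 0.460 fell at A1583, 45.7% ± 2.15 at A1584 and 3.88% ± 1.73 at A1585. At 2 µM the shares were 0.741% ± 0.139 at A1583, 50.2% ± 6.79 at A1584 and 49.1% ± 6.70 at A1585.

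The partition of stops over the 3 bases was then compared between the lines. At 500 µM the share at A1583 was 54.0% ± 2.32 without MRM1, 54.2% ± 3.80 without MRM2 and 53.1% ± 2.75 without MRM3, and at 2 µM the share at A1585 was 54.2% ± 5.34, 50.4% ± 2.18 and 51.6% ± 3.87 in the same order (SD, n = 3). The 3 MRM1 knock-out libraries lay above the parental ones in the first of these shares, and all other groups overlapped with the parental line. The share at A1583 at 2 µM was 1.29%, 1.80% and 2.11% without MRM2, on 14 or 15 stops a library, and all 3 lay above the parental 0.770%, 0.864% and 0.589%. Without MRM1 and MRM3 it was 1.30% ± 0.556 and 0.995% ± 0.435, and both overlapped with the parental line. The share at A1585 at 500 µM was 1.79% ± 0.519 without MRM2, on 2 to 7 stops a library, and overlapped with the parental 3.88% ± 1.73. These shares were not tested. The counts behind a library's 3 bases were 155 to 1246 stops at 500 µM and 542 to 5260 at 2 µM. A cDNA that stops at A1583, A1584 or A1585 and began at the last nucleotide is 18, 17 or 16 nucleotides long. No 5′ end at all was counted in any of the 24 libraries from mtDNA position 1591 to the end, so no stop could be read close to the 3′ end.

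**Figure D1:**
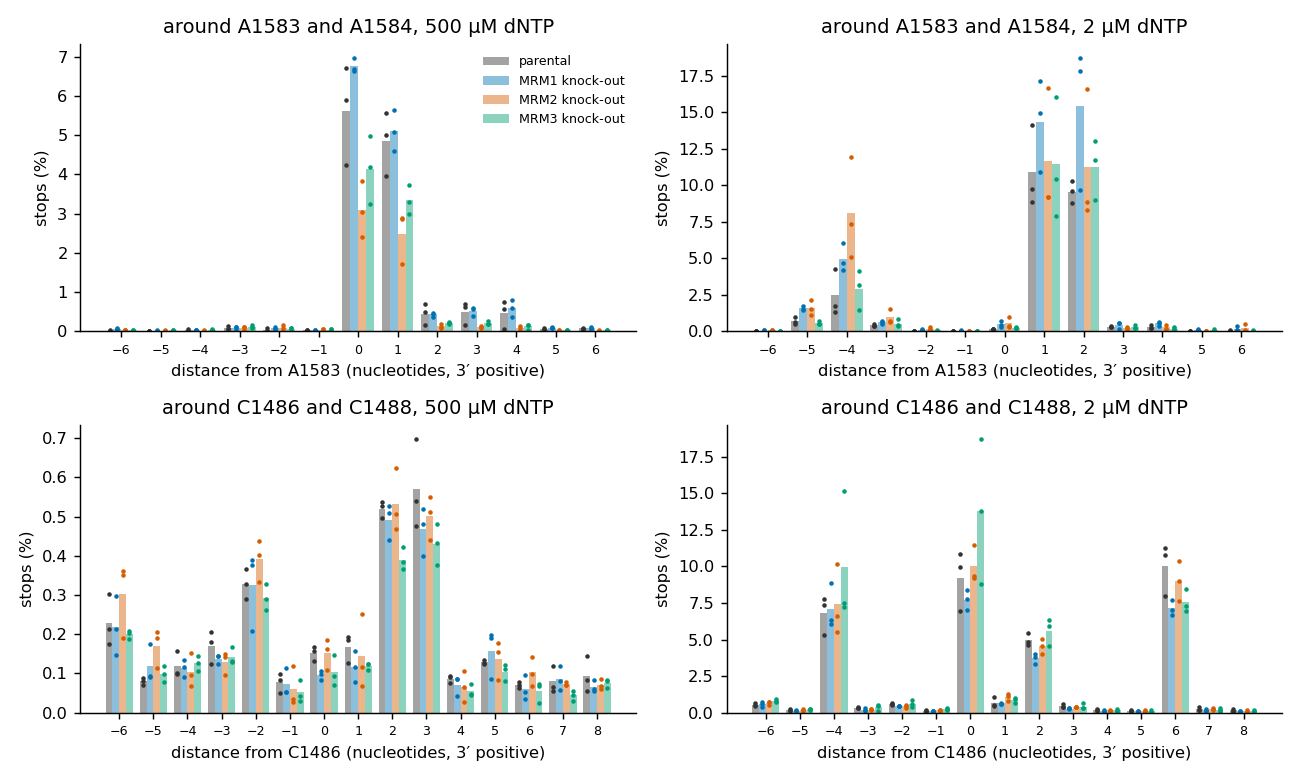
Stop percentage by distance from A1583 (upper panels, where A1584 is at 1) and from C1486 (lower panels, where C1488 is at 2), at 500 µM (left) and 2 µM dNTP (right); bars are means of 3 replicates per line and points are single libraries. In the upper panels the high bars stand at 0 and 1 at 500 µM and at 1 and 2 at 2 µM in every line, and the MRM2 knock-out points at 0 and 1 lie below the parental points at 500 µM.

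The RT-stop score divides the stop ratio at 2 µM by that at 500 µM in the same replicate, and a high value is read as a sign of ribose methylation. At A1583 it was 0.0262, 0.0326 and 0.0412 in the parental line, the lowest mean of all tested positions of the 3′ portion, and it ranked 40th from the bottom among 11971 tested positions of the transcriptome. At A1585 the score was 14.8, 17.7 and 55.1 in the parental replicates. Over all 12 replicates the score ran from 0.0262 to 0.255 at A1583 and from 14.8 to 111 at A1585.

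Stops at 500 µM were compared between each knock-out and the parental line with edgeR's quasi-likelihood test of stop counts against coverage, with Benjamini-Hochberg adjustment over 4853 positions, 420 of them in the 3′ portion. In the MRM2 knock-out 6 of the 420 positions passed, 5 lower and 1 higher, or 1.43%, against 1.28% of all tested positions, so the share in the 3′ portion was near the background. The 5 lower ones were A1583, A1584, A1585, G1586 and G1134, and 4 of them are adjacent bases around the loop of helix 45. A cDNA counted as a stop at A1583, A1584, A1585 or G1586 holds at most 18, 17, 16 or 15 nucleotides of the rRNA. The part of the recovery of such short cDNAs in these 4 calls was not tested. A1584 fell by 0.96 ± 0.18 on the log2 scale (SE, edgeR, adjusted p = 0.00744) and A1583 fell by 0.86 ± 0.18 (SE, edgeR, adjusted p = 0.0202). G1586 fell by 2.42 ± 0.51 (SE, edgeR, adjusted p = 0.0199), from 0.615%, 0.698% and 0.174% in the parental line to 0.133%, 0.0831% and 0.112%, on 3 or 4 stops per MRM2 library. A1585 fell by 1.98 ± 0.48 (SE, edgeR, adjusted p = 0.0393), and there the lines overlapped. With limma on the log2 stop ratio, 0 of the 420 positions passed in the MRM2 knock-out (lowest adjusted p = 0.112).

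G1134 fell from 0.596%, 0.626% and 0.624% to 0.330%, 0.272% and 0.328% without MRM2 (log2 difference -1.05, edgeR, adjusted p = 0.0324), and G1463 rose from 1.02%, 1.03% and 1.06% to 1.35%, 1.56% and 1.77% (log2 difference 0.58, edgeR, adjusted p = 0.0495). At both bases the 3 knock-out libraries stood apart from the 3 parental ones. In the MRM1 and MRM3 knock-outs 0 of the 420 positions passed with edgeR or DESeq2, with 40 and 54 at an unadjusted p under 0.05, and the background was 0.0206% and 0.165%. At A1583 the log2 differences were 0.27 ± 0.18 without MRM1 and -0.44 ± 0.18 without MRM3 (SE; edgeR, adjusted p = 0.644 and 0.799), and at A1584 they were 0.08 ± 0.17 and -0.54 ± 0.18 (SE; edgeR, adjusted p = 0.891 and 0.604).

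Stops over all tested positions were also lower in the MRM2 knock-out, with a median log2 difference of -0.32 over the transcriptome and -0.13 over the 3′ portion. When each library was centred on its own median, 7 positions of the 3′ portion passed, 4 higher and 3 lower, in place of 1 and 5, while for all tested positions the split was 21 higher and 35 lower in place of 8 and 54. A1583 and G1134 did not pass in that fit (adjusted p = 0.0523 for both), whereas A1584, G1586 and G1463 did (0.0264, 0.0132 and 0.00403). Mean fragment length in the 12S mt-rRNA differed between the lines at 500 µM: it was 129, 127 and 146 nucleotides in the parental replicates, 150, 150 and 152 without MRM2, 151, 140 and 140 without MRM1, and 150, 143 and 126 without MRM3. The parental replicate with the longest fragments had the lowest stop percentages at A1583 to G1586, but the first MRM1 knock-out replicate, at 151 nucleotides, had 6.97% at A1583; the part of fragment length in the MRM2 difference was not tested. Leaving out parental replicate 1 or MRM2 knock-out replicate 1 ended the call at A1584 (adjusted p = 0.0677 to 0.0738), and leaving out either of these, parental replicate 2 or MRM2 knock-out replicate 2 ended that at A1583 (0.0771 to 0.144); at G1586, G1134 and G1463 the call was lost without any library other than parental replicate 3 (0.0677 to 0.277).

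At 2 µM none of the 9 tested positions within 6 bases of the dimethylated adenines passed in any knock-out, with lowest adjusted p = 0.102, 0.0749 and 0.746 for MRM1, MRM2 and MRM3 (edgeR). At A1585 the stop percentage was 17.9%, 9.65% and 18.7% without MRM1, 8.83%, 8.29% and 16.6% without MRM2, and 11.7%, 13.01% and 8.97% without MRM3, against 10.3%, 8.77% and 9.58% in the parental line. Replicates of 1 line spread widely, and each knock-out overlapped with the parental line. The RT-stop score at A1583 was 0.118, 0.127 and 0.255 in the MRM2 knock-out, above the parental line, but the difference of 2.26 on the log2 scale (95% interval 1.32 to 3.20) did not pass the limma test over all positions (adjusted p = 0.104).

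At the methylated cytidines of the decoding site, stops appeared at low dNTP. At C1486 the stop percentage at 500 µM was 0.167%, 0.158% and 0.133% in the parental line, and at 2 µM it was 9.96%, 6.93% and 10.8%. At C1488 the parental line gave 0.496%, 0.526% and 0.538% at 500 µM and 4.86%, 4.63% and 5.46% at 2 µM. C1487, the cytidine between them, gave 0.519%, 0.451% and 1.06% at 2 µM. High stops at 2 µM were not particular to the methylated bases of this strand: A1482 gave 7.80%, 5.33% and 7.34% and A1492 gave 10.8%, 8.01% and 11.3% in the parental line.

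The RT-stop score at C1486 was 59.8, 43.8 and 81.4 in the parental line, 93.6, 84.6 and 66.9 without MRM1, 57.8, 61.6 and 83.7 without MRM2, and 146, 128 and 124 without MRM3. The 3 MRM3 knock-out values lay above the parental ones, with a log2 difference of 1.14 (95% interval 0.43 to 1.86), which did not pass after adjustment (limma, adjusted p = 0.466). At C1488 the parental scores were 9.80, 8.81 and 10.2, and the log2 differences were -0.33 (95% interval -1.05 to 0.40) for MRM1, -0.16 (-0.88 to 0.57) for MRM2 and 0.57 (-0.16 to 1.30) for MRM3. None of the 15 positions within 6 bases of these cytidines passed in any of the knock-outs for RT-stop score or for stops at 500 µM or 2 µM.

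Neither cytidine was protected from cleavage. The cleavage protection score, score A, compares the fragment 3′ ends at a base with those at 6 neighbours on each side, and the deposited score sets values below 0 to 0. Before this truncation it was -0.080, -0.046 and -0.162 at C1486 and -0.359, -0.366 and -0.410 at C1488 in the parental line. The 3′ ends at C1488 stood at 165%, 177% and 186% of the mean of its neighbours. In the knock-outs the untruncated scores at C1488 ranged from -0.596 to -0.329, and no difference at either cytidine passed. A1584 scored 0.137, 0.145 and -0.123, near 0. At A1583 the untruncated score was -0.602, -0.644 and -0.792 in the parental line, with 3′ ends at 283%, 318% and 613% of their neighbours, so that more fragments ended there than beside it.

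Stops at low dNTP were most frequent at adenines. In the parental line the mean stop percentage at 2 µM was 4.72% ± 0.135 over the 147 adenines, 1.41% ± 0.0488 over 102 guanines, 1.29% ± 0.0525 over 102 uridines and 0.976% ± 0.0951 over 122 cytidines (SD, n = 3). At 500 µM the means of the bases were closer, from 0.4996% ± 0.0404 for guanine to 0.645% ± 0.0512 for adenine. The median RT-stop score was 5.004 ± 0.825 at adenines and 0.603 ± 0.0133 to 0.930 ± 0.0954 at the other bases. In the 5′ portion of 12S, nucleotides 1 to 480, the order of adenine over the rest was the same at 2 µM. Adenines gave 5.42% ± 0.0648 and cytidines 0.365% ± 0.0184. The mean over cytidines was higher in the 3′ portion, 0.890% to 1.08% in the single libraries against 0.349% to 0.385%, and it includes C1177 at 38.5%. By 3′ neighbour, cytidines stood higher there before G (2.80% against 1.11%), U (1.04% against 0.354%) and C (0.673% against 0.210%). Before A they stood lower (0.257% against 0.304%). Of the 473 tested positions, 203 had a parental RT-stop score above the median of their library (limma, adjusted p up to 0.05). These are 42.9%, beside 30.1% of all 11971 positions. At the same threshold 133 of the 473 lay below that median, beside 3250 of the 11971. The 473 include bases close to the 3′ end with no stop counted, whose score follows from coverage alone. Base composition and differences in coverage were not taken into account in these counts.

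Some bases held up much of the synthesis at 2 µM. These were chosen after their values were seen: A1383 had stop percentages of 68.1%, 69.9% and 66.5% in the parental line, and G1412 had 61.2%, 54.4% and 61.4%. In the knock-outs the means at A1383 were 70.5% ± 4.60 without MRM1, 71.2% ± 3.69 without MRM2 and 71.7% ± 8.11 without MRM3, and at 500 µM it was 1.17% ± 0.0739 in the parental line (SD, n = 3). C1177 followed with 38.5% ± 6.59 and A1317 with 29.9% ± 1.93. In all, 147 of 473 positions exceeded 1% in the parental mean at 2 µM and 82 at 500 µM. By RT-stop score, the 5 highest parental means were at A1567 (564, 100 and 236), A1553 (146, 136 and 573), A1492 (154, 125 and 145), C1579 (33.5, 76.0 and 217) and A1367 (95.8, 70.2 and 75.4). Replicates were far apart at A1567, A1553 and C1579, where the 500 µM stop percentage in the denominator was at most 0.0634% in every parental library.

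**Figure D2:**
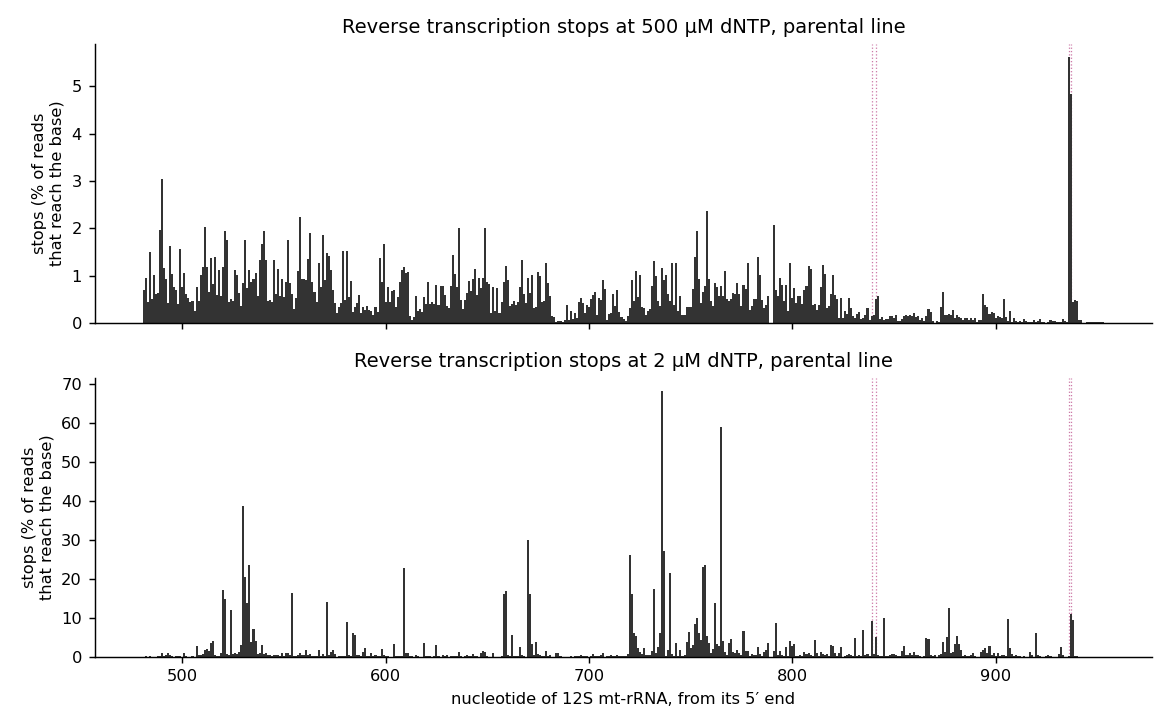
Mean stop percentage of the 3 parental replicates at each nucleotide of the 3′ portion, at 500 µM (upper) and 2 µM dNTP (lower, other scale); dotted lines mark C1486, C1488, A1583 and A1584. At 500 µM the tallest bars are the dimethylated adenines, with A1583 at 5.61%, and at 2 µM the tallest is A1383 at 68.2%.

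Coverage along the rRNA differed between the dNTP levels. At 2 µM the mean coverage of the third of 6 windows of 79 nucleotides, 1286 to 1364, was 29.9% ± 1.01 of the mean of the 3′ portion in the parental line, and that of the fifth, 1444 to 1522, was 160.6% ± 7.87. At 500 µM the same windows stood at 130.8% ± 0.866 and 79.4% ± 3.20 (SD, n = 3). The ratio of the mean coverage of the 3′ portion to that of the 5′ portion was 1.02 ± 0.0805 at 500 µM and 0.613 ± 0.0136 at 2 µM in the parental line (SD, n = 3). For the MRM1, MRM2 and MRM3 knock-outs it was 0.973 ± 0.0459, 0.997 ± 0.0898 and 1.05 ± 0.0583 at 500 µM, with exact two-sided permutation p = 0.6, 0.7 and 0.7, where 3 replicates against 3 cannot go below 0.1. At 2 µM the 3 MRM1 knock-out values, 0.540, 0.574 and 0.553, lay below the parental 0.617, 0.597 and 0.623 (exact permutation p = 0.1).

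**Figure D3:**
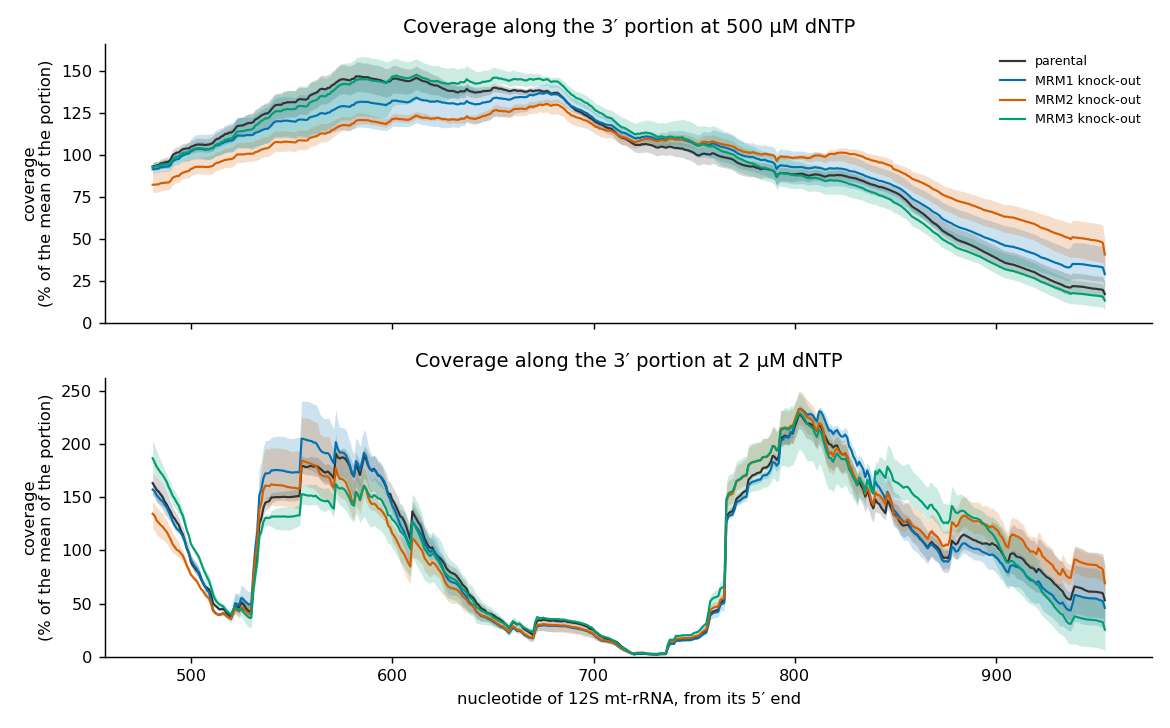
Coverage at each nucleotide of the 3′ portion as a percentage of its mean in the same library, at 500 µM (upper) and 2 µM dNTP (lower); lines are means of 3 replicates per line and bands run from the lowest to the highest replicate. At 2 µM the window from 1286 to 1364 (nucleotides 639 to 717 of the rRNA) has 29.9% of the mean in the parental line, and at 500 µM the last window is highest in the MRM2 knock-out.

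The 3′ end of the rRNA was represented unequally. At 500 µM the last nucleotide, C1601, held 3.42%, 3.33% and 6.55% of the 3′ ends of the portion in the parental line, 11.2%, 6.83% and 5.71% without MRM1, 8.54%, 12.2% and 14.3% without MRM2, and 5.57%, 3.28% and 1.94% without MRM3. The 3 MRM2 knock-out libraries lay above the parental ones, with a mean difference of 7.26 percentage points (exact two-sided permutation p = 0.1, the smallest p 3 against 3 can give). For MRM1 and MRM3 the differences were 3.47 and -0.835 percentage points, with exact permutation p = 0.2 and 0.5, and without MRM1 knock-out replicate 1 the difference for MRM1 was 1.84. At 2 µM the parental line had 3.04%, 4.03% and 8.27% and the MRM2 knock-out 5.93%, 7.91% and 6.08%, which overlap (exact permutation p = 0.5). The last window, 1523 to 1601, had 49.9% to 68.1% of the mean coverage of the portion without MRM2 at 500 µM, above the 29.2% to 40.3% of the parental line. The 3 MRM2 knock-out libraries were also among those with the longest fragments given above, and the part of fragment length was not tested.

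Strong apparent protection from cleavage was rare. Of the 458 positions scored in all 12 libraries, 85 had a parental mean above 0 before truncation, 41 of them guanines among 98 guanines scored, and 5 exceeded 0.3. The 5 were A1439 (0.965, 0.989 and 0.963), G1595 (0.887, 0.878 and 0.928), A1438 (0.730, 0.684 and 0.765), G1181 (0.642, 0.638 and 0.747) and G1449 (0.317, 0.384 and 0.290). The 6 bases on the 3′ side of G1595 include the last nucleotide, where all fragments that reach the end of the rRNA stop, so its score compares it with that peak. Guanine was the base with the fewest 3′ ends: the median guanine stood at 78.2% ± 2.93 of its neighbours in the parental line, the median adenine at 93.8% ± 1.81, cytidine at 108.5% ± 0.823 and uridine at 109.8% ± 2.49 (SD, n = 3).

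At A1438 and A1439 the low counts of 3′ ends had a counterpart on the other side. In the parental line the 3′ ends numbered 2, 0 and 1 at A1439 and 18, 15 and 10 at A1438, while U1437 had 1319, 842 and 877, or 464%, 454% and 457% of its neighbours. The 5′ ends numbered 0 at U1437 in all 12 libraries at 500 µM and at most 1 at A1438, and rose to 724, 616 and 553 at A1439. The same pattern was present in the knock-outs, with 3′ ends at U1437 at 413% to 522% of their neighbours. The knock-out scores at A1439 were 0.689 to 0.991 and at A1438 0.644 to 0.940. At A1438 the 3 MRM1 knock-out scores, 0.940, 0.851 and 0.929, lay above the parental ones, a difference of 0.18 (95% interval 0.06 to 0.30) that did not pass over all positions (limma, adjusted p = 0.876). In the 2 µM libraries A1438 had 3′ ends at 4.59%, 4.53% and 3.53% of its neighbours in the parental line, as low as at 500 µM. The letters used here are those of the reference, and whether the mtDNA of these cells carries the same bases was not tested.

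G1181 showed another picture. Its 3′ ends stood at 18.1%, 17.9% and 10.8% of those of its neighbours at 500 µM in the parental line and at 21.3%, 6.73% and 4.07% at 2 µM. The scores were 0.521, 0.419 and 0.594 without MRM1, 0.722, 0.402 and 0.421 without MRM2, and 0.304, 0.700 and 0.491 without MRM3. The MRM1 knock-out lay below the parental line and the others overlapped with it, and none of the 3 differences passed.

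**Figure D4:**
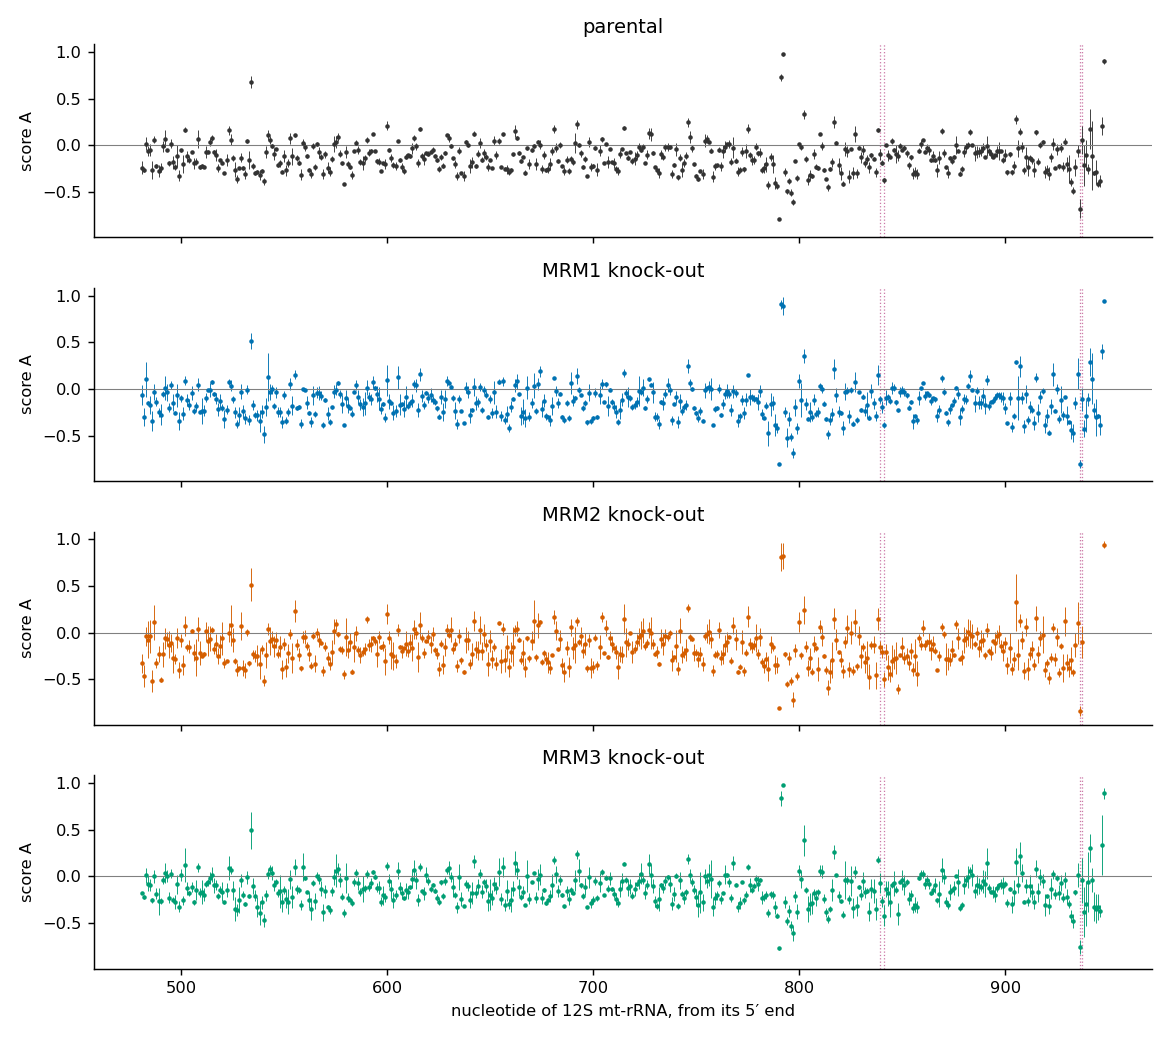
Score A before truncation at 0 at each nucleotide of the 3′ portion in the 500 µM libraries of the 4 lines, as mean and SD of 3 replicates; dotted lines mark C1486, C1488, A1583 and A1584. The highest points are A1439, G1595, A1438 and G1181 in every line, and C1488 and A1583 lie below 0 in all of them.

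In the test of the deposited, truncated score with limma, 133 of the 641 positions tested lay in the 3′ portion and 0 passed in any knock-out, with 4, 8 and 0 at an unadjusted p under 0.05 for MRM1, MRM2 and MRM3. The background was 0.156%, 0.156% and 0.312% of tested positions. For the RT-stop score, 0 of 473 passed in any knock-out, with 33, 58 and 21 at an unadjusted p under 0.05 and a background of 0.00835%, 0% and 0.00835%. The 473 include the bases close to the 3′ end where no stop was counted in any library. The score of those bases follows from coverage alone and could not show a change in stops. A1321 and G1336 were followed by name because earlier results of these data had pointed to them, so their values are a description. Untruncated scores at A1321 were 0.046, -0.046 and 0.011 in the parental line and 0.219, 0.225 and 0.117 without MRM1, and at G1336 they were -0.182, -0.152 and -0.115 against -0.022, 0.198 and 0.006. The replicates of the MRM1 knock-out stood above the parental ones at both bases. With edgeR on the 3′ end counts relative to their neighbours, the log2 differences were -0.60 ± 0.13 and -0.64 ± 0.14 (SE), each with adjusted p = 0.0610. At G1336 the MRM2 knock-out had 81.8%, 68.6% and 47.3% of the ends of the neighbours against 112%, 108% and 98.1% in the parental line, a log2 difference of -0.65 ± 0.16 (SE; edgeR, adjusted p = 0.0329).

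The count test of 3′ ends, which keeps bases with a score of 0, showed its largest change in the 3′ portion at C1495, which lies 7 bases 3′ of C1488; it was chosen after its values were seen. At 500 µM its 3′ ends stood at 94.7%, 93.9% and 114% of the mean of the 12 neighbouring bases in the parental line, at 128%, 129% and 124% without MRM1, at 280%, 357% and 395% without MRM2, and at 191%, 243% and 140% without MRM3. Each knock-out lay above all parental values, and the MRM2 knock-out lay above all the others. The ends behind these percentages numbered 283, 205 and 219 in the parental line, 161, 179 and 129 without MRM2, and 221, 251 and 354 without MRM3.

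The log2 differences at C1495 were 1.75 ± 0.16 for MRM2 (SE; edgeR, adjusted p = 2.37e-09), 0.89 ± 0.15 for MRM3 (adjusted p = 9.29e-04) and 0.34 ± 0.16 for MRM1 (adjusted p = 0.706). With any 1 library left out, the difference stayed between 1.66 and 1.89 for MRM2 (adjusted p up to 3.32e-07) and between 0.69 and 1.11 for MRM3 (adjusted p up to 0.0203). Before truncation the score showed the same direction, with -0.090, -0.070 and -0.181 in the parental line, -0.546, -0.610 and -0.648 without MRM2 and -0.391, -0.527 and -0.292 without MRM3; the limma test passed for MRM2 (adjusted p = 2.13e-04) and did not for MRM3 (adjusted p = 0.0745). In this test 5 of 458 positions passed for MRM2, all lower (A1137, C1491, A1492, C1495 and U1496), beside 0.683% of all positions, and 0 for MRM1 and MRM3, with 18 and 7 at an unadjusted p under 0.05 and a background of 0.0455% and 0.0911%. The truncated score is 0 in all of these libraries and does not show the change. C1491, A1492 and U1496 lie within 6 bases of C1495, so the ends at C1495 enter the neighbours that their scores are compared with. None of these neighbours passed the count test of 3′ ends for MRM2, and their calls are not independent of C1495.

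The 2 µM libraries, made from the same fragmented RNA, gave 148%, 172% and 189% at C1495 in the parental line, 363%, 410% and 522% without MRM2 and 230%, 409% and 214% without MRM3. The log2 difference was 1.34 ± 0.25 for MRM2 (SE; edgeR, adjusted p = 0.0405) and 0.74 ± 0.25 for MRM3 (adjusted p = 0.279). At this dNTP level C1495 was the 1 base of 352 called for MRM2, beside 0.4% of all positions, and 0 were called for MRM1 and MRM3, with 55 and 48 at an unadjusted p under 0.05 and a background of 0.0889% and 0.267%. The untruncated score at 2 µM passed at 4 bases for MRM2, C1495 not among them (adjusted p = 0.175), beside 1.07% of all positions, and at 0 for MRM1 and MRM3, with 52 and 48 at an unadjusted p under 0.05 (background 0.222% and 0.0445%). On the other side of the same bond, 5′ ends at U1496 numbered 61, 42 and 24 in the parental line at 500 µM and 5, 6 and 7 without MRM2. The log2 difference of stops at C1495, which are these 5′ ends relative to coverage, was -1.02 ± 0.38 for MRM2 (SE; edgeR, adjusted p = 0.144). The share of fragments that ended at C1495 was thus higher, and no higher share beginning at the next base was called.

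**Figure D5:**
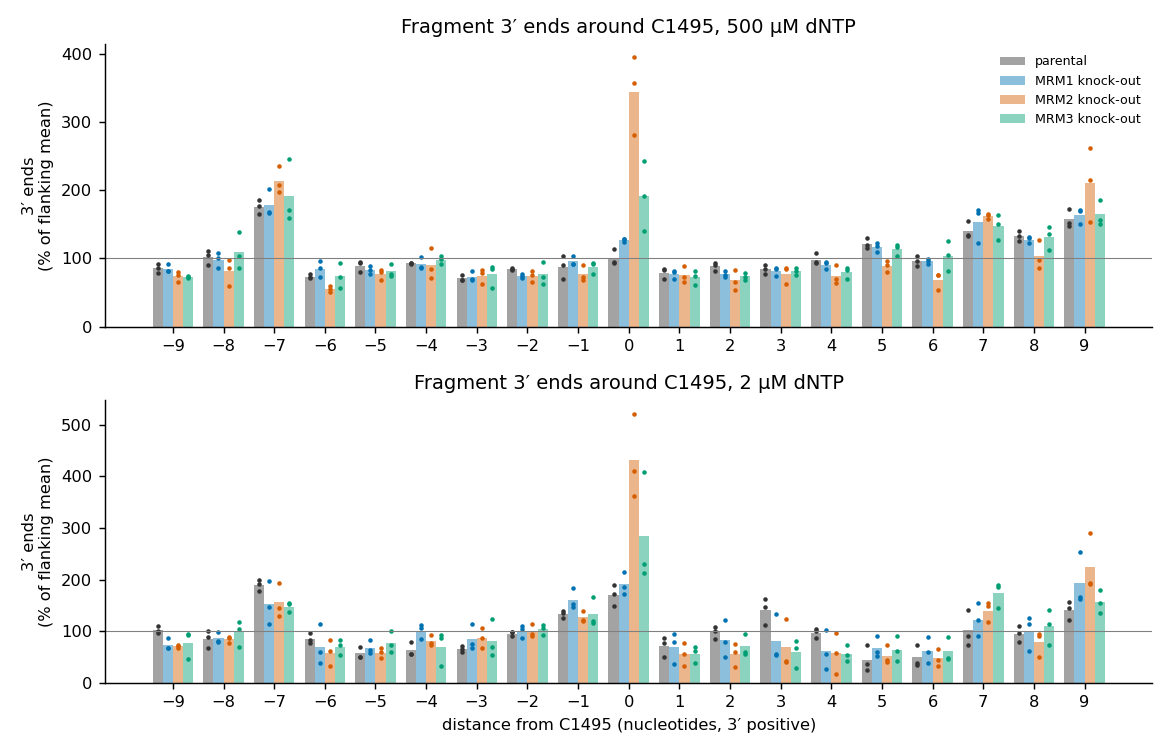
Fragment 3′ ends by distance from C1495 as a percentage of the mean of the 12 neighbouring bases, at 500 µM (upper) and 2 µM dNTP (lower); bars are means of 3 replicates per line, points are single libraries and the grey line is 100%. At 0 on the axis, C1495, the MRM2 knock-out stands at 280% to 395% at 500 µM, above all other libraries.

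Beside C1495, the count test of 3′ ends passed 4 further bases of 458 in the MRM2 knock-out: A1300, C1481 and A1583 were higher and G1336 was lower. These 5 are 1.09% of the 458, beside 1.5% of all 2196 tested positions, and in the MRM3 knock-out C1495 alone passed, beside a background of 0.182%. In the MRM1 knock-out 0 passed, with 36 at an unadjusted p under 0.05 and a background of 0.0455%. At A1583 the difference was 0.95 ± 0.23 for MRM2 (SE; edgeR, adjusted p = 0.0234), from 283%, 318% and 613% of the neighbours in the parental line to 589%, 845% and 921%, where the lines overlapped.

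At 2 µM, 392 positions of the 3′ portion were tested for stops with edgeR, of 6336 in all. In the MRM3 knock-out 4 passed and all were lower, or 1.02% beside a background of 0.458%, and they lie within a stretch of 17 bases. A1544 gave 2.56%, 2.76% and 2.90% in the parental line and 1.69%, 1.16% and 0.790% without MRM3, a log2 difference of -1.20 ± 0.24 (SE; edgeR, adjusted p = 0.0259). A1546 went from 0.909%, 1.03% and 1.04% to 0.503%, 0.450% and 0.245% (log2 difference -1.38, edgeR, adjusted p = 0.0458). A1550 went from 0.361%, 0.397% and 0.368% to 0.162%, 0.171% and 0.0817% (log2 difference -1.62, edgeR, adjusted p = 0.0259), and C1534 from 0.191%, 0.255% and 0.214% to 0.115%, 0.0824% and 0.0867% (log2 difference -1.30, edgeR, adjusted p = 0.0445). At all 4 bases the MRM3 knock-out replicates lay below the parental ones. The lower level was not confined to them. Over the whole last window, 1523 to 1601, the median stop percentage at 2 µM was 0.143% ± 0.0446 without MRM3. In the parental line it was 0.248% ± 0.0235 (SD, n = 3). Whether the 4 bases fell by more than their window was not tested.

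In the other knock-outs, 1 position each passed at 2 µM. G1211 fell from 0.346%, 0.301% and 0.293% to 0.103%, 0.124% and 0.146% without MRM1 (log2 difference -1.44, edgeR, adjusted p = 0.0200; background 0.0473%). A1140 rose from 0.767%, 0.906% and 1.08% to 1.56%, 1.81% and 2.75% without MRM2 (log2 difference 1.09, edgeR, adjusted p = 0.0339; background 0.426%). All 6 calls at 2 µM were sensitive to single libraries. Leaving out parental replicate 2, for example, ended each of them, and at C1534 any of the 6 libraries did so (adjusted p = 0.0508 to 0.217). With limma on the log2 stop ratio 0 positions of the 3′ portion passed in any knock-out at either dNTP level.

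The number of reads that the 3′ portion yielded was lower in the MRM2 knock-out. At 500 µM it took 13.2%, 12.99% and 11.99% of all mitochondrial reads without MRM2, against 16.3%, 15.97% and 14.8% in the parental line. With TMM normalization over 38 features, the log2 difference was -1.07 ± 0.18 (SE; edgeR, adjusted p = 3.39e-05), and relative to total reads it was -0.30 ± 0.06 (adjusted p = 0.00180); the background was 15.8% of features with TMM and 55.3% relative to total reads. The median feature moved by -0.03 with TMM and by 0.73 relative to total reads, so the portion was lower than the median feature on both scales. The 5′ portion changed alike, by -1.03 ± 0.16 with TMM. Without MRM3 the share was 19.2%, 20.1% and 21.5%, above the parental line, and the log2 difference was 0.37 ± 0.06 relative to total reads (edgeR, adjusted p = 1.84e-04; background 39.5%) but -0.20 ± 0.18 with TMM (adjusted p = 0.347; background 26.3%). The median feature moved by 0.18 relative to total reads and by -0.45 with TMM, so the portion stood above it on both scales at 500 µM, while at 2 µM it did not (-0.12 against -0.08 with TMM). Without MRM1 it was -0.33 ± 0.18 with TMM (edgeR, adjusted p = 0.513; background 0%). All of these values are relative to the other mitochondrial transcripts of the same library, and in such bulk samples less of the rRNA in every cell and a loss of it from some of the cells cannot be told apart.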

How the data were processed

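Alkaline-fragmented, mitochondria-enriched RNA was sequenced from 3 replicates of 4 lines at 500 µM and 2 µM dNTP (24 libraries). The authors aligned reads with STAR 2.5.3a to the mitochondrial genome of GRCh 38.p13, and deposited counts of fragment ends and coverage per transcript position together with score A and the stop ratio, both fractions per the file headers. The column headed readStart was taken as 3′ ends and readEnd as 5′ ends, since coverage followed from the ends at all 15416 positions only in this reading. Score A used 6 flanking bases a side and a flanking median of at least 15, and the stop ratio added 1 to stops and coverage.

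From these, untruncated score A, stop counts and RT-stop scores were computed. Scores were compared with limma 3.58.1 (positions scored in all 12 libraries, with a score above 0 in at least 3; for RT-stop scores, log2 values at coverage of at least 50 in every library), stops (10 or more in 3 libraries), 3′ ends and reads with edgeR 4.0.16, all 4 lines in 1 fit in R 4.3.3, adjusted over all positions at 0.05; DESeq2 1.42.0 was an alternative, and single values had exact permutation tests. Figures and tables used Python 3.11.15 and matplotlib 3.10.9. Named bases were the 4 methylated bases with their neighbours, the last nucleotide, A1321 and G1336, the 5 highest parental bases for each score, and per comparison the 5 largest called changes with non-overlapping replicates; others are marked as chosen after their values were seen. The bases and lists were chosen with earlier results of these data known. Fits were tested on simulated data. Deviations of same-numbered parental and knock-out replicates correlated weakly or negatively, from -0.309 to 0.166 over all measures. For cleavage protection and the RT-stop score, each parental replicate correlated best with the same-numbered MRM2 knock-out replicate. The main fits left replicates unpaired, so a weak pairing with the MRM2 knock-out is not excluded. Fits with the replicate number as a block are given below as alternatives. Replicate libraries of a group differed beyond counting noise in all 24 pairs (chi-square divided by its degrees of freedom at least 1.54).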

Additional observations from a re-analysis of the deposited data

How the results depend on the processing

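At bases with few stops or ends, as in the shallow MRM2 knock-out libraries, the counts limit what can be called. Cleavage protection without MRM2 gave 5 positions before truncation at 0 and 5 with edgeR on 3′ ends, and, in 2 alternatives chosen after seeing the data, 1 with edgeR on the 3′ ends of the 2 µM libraries and 4 with the untruncated score there; without MRM3 it gave 1 with edgeR on 3′ ends. The RT-stop score gave 1 position on a linear scale without MRM2, and leaving out single libraries gave 0 to 1. Stops at 500 µM without MRM2 passed at 0 positions with limma, 10 with no filter and 2 with the replicate block (A1583, G1134 and G1463 not among them), and at 0 to 19 with 1 library left out (0 without parental replicate 1 or MRM2 knock-out replicate 1, 1 without parental replicate 2 or MRM2 knock-out replicate 2, 2 without MRM2 knock-out replicate 3, 19 without parental replicate 3); without MRM3 they passed at 1 with no filter and at 0 to 3. Stops at 2 µM passed without MRM1, MRM2 and MRM3 at 0, 0 and 0 positions with limma, 8, 6 and 13 with DESeq2, and 23, 18 and 25 with no filter, at 2 with the replicate block and 4 when centred for MRM2 (C1534 did not pass for MRM3 with the block), and at 0 to 4, 0 to 13 and 0 to 11 with 1 library left out; the replicate block changed no other call count by over 1.5 times. The number of positions above the median RT-stop score was 178 to 207 under all alternatives. Reads of the 3′ portion without MRM3 reversed to 0.37 with total reads, 0.40 with DESeq2 and 0.19 with rRNAs left out of the normalization, and ranged from -0.46 to 0.18 with 1 library left out, where only leaving out MRM3 knock-out replicate 3 gave a call (adjusted p = 0.00513). The coverage ratio of the portions differed from the parental line in the 2 µM libraries by 0.0142 for MRM2 and -0.0211 for MRM3, opposite to 500 µM, and with 1 library left out by -0.0660 to 0.0308 and -0.0122 to 0.0654; the share of ends at the last nucleotide reversed for MRM1 at 2 µM (-0.647 percentage points) and ranged from -1.82 to 0.224 for MRM3. The cause of these changes was not tested.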
